A study of Rattus norvegicus and Mus musculus with 3 samples.

Results

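The 9 genes Apoe, Clu, Bin1, Picalm, Sorl1, Cd2ap, Ptk2b, Abca7 and Lrp1 were followed through the hippocampal libraries of a series on animal models of Alzheimer's disease and vascular dementia. They are some of the genes whose human counterparts are known from Alzheimer risk studies, with the ApoE receptor Lrp1 added, and they were chosen by symbol. All but the kinase gene Ptk2b are genes of lipid carriage, endocytic uptake or sorting. All 9 were found, among 30438 genes listed in each rat table and 34714 in the mouse table. There were 3 libraries, with 1 library per group. The first rat was labelled 2VO, which in this field usually means that both common carotid arteries were occluded, a chronic shortage of cerebral blood flow. The second rat was labelled Sham, the control that usually has the same operation without the occlusion. Both rats were labelled WT and were 3 to 4 months old. The third library came from the line labelled 3xTg-AD, from a WT mouse 6 months old, which lacks the transgenes that make that line a disease model. The interval after surgery, the strains, and whether animals were pooled are not stated in the labels. Transgenic animals of that line were not analysed here.

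Each table gives 1 normalized expression value per gene in a unit that the sources used here do not state, written below as units. Whether the values were divided by transcript length is not stated either, so the order of levels between genes is the order in which the tables list them. The summed values were 333941 in 2VO, 325636 in Sham and 268889 in the mouse, and sequencing depth is unknown. Since each group is a single library, there is no replicate spread, no test was possible, and every difference describes these libraries. All 15 excitatory neuron markers checked were above 0 in every library, with sums of 3487 units in 2VO, 3428 in Sham and 2905 in the mouse, so the neuronal content the hippocampus label calls for was present.

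Apolipoprotein E is the main lipid carrier of brain tissue and is secreted largely by astrocytes, and by microglia when they are activated. Clusterin, the product of Clu, is a second secreted apolipoprotein and an extracellular chaperone. Cells take up such particles through receptors of the LDL receptor family, of which Lrp1 is the large scavenging member, and Sorl1 sorts cargo, including the amyloid precursor protein, between endosomes and the Golgi. Picalm, Bin1 and Cd2ap encode adaptors of clathrin coats, curved membranes and the actin cytoskeleton. Abca7 exports lipid across membranes, and Ptk2b encodes a calcium-responsive tyrosine kinase abundant in hippocampal neurons.

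RefSeq windows around the transcription start were matched for 7 of the 9 genes in the rat assembly GRCr8, all but Clu and Ptk2b. Each runs from 250 bases before the listed start to 50 after it. The windows of Apoe and Cd2ap are shown because these genes had the lowest 2VO to Sham ratios of the 9, and that of Picalm because it had the highest. They lie at chr1:88484650-88484949 on the minus strand for Apoe, at chr9:25583725-25584024 on the plus strand for Cd2ap and at chr1:153469047-153469346 on the plus strand for Picalm. Apoe has 3 listed starts with a window each, and the one printed is the middle of these, chosen for its matches. The first window held 0 matches, and the third overlaps the printed one and held the same 4. Capitals mark matches on either strand to the TATA box (TATAA), the GC box (GGGCGG), the CCAAT box (CCAAT), the cAMP response element (TGACGTCA) and the palindromic E-box (CACGTG).
Apoe: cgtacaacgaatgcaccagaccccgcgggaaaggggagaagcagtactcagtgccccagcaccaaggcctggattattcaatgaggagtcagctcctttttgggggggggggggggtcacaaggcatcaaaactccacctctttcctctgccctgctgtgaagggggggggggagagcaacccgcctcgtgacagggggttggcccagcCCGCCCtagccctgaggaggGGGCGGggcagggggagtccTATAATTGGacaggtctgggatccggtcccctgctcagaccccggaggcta
Cd2ap: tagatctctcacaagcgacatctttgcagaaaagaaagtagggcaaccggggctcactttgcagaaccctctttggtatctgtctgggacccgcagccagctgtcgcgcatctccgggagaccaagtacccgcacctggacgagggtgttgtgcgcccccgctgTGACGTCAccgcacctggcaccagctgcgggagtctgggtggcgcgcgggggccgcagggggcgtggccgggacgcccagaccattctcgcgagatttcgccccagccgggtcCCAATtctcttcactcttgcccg
Picalm: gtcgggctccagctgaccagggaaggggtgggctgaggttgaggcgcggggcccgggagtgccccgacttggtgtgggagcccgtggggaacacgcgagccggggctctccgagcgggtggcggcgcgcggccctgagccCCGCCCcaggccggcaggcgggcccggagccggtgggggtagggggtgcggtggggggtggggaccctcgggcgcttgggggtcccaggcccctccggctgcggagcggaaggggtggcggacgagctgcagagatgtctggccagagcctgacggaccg

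The Apoe window held 2 matches to the GC box, 1 to the TATA box and 1 to the CCAAT box, and the last 2 overlap. Cd2ap held 1 cAMP response element and 1 CCAAT box, and Picalm held 1 GC box. Of all 33469 rat windows of this length 33.1% held a GC box, 37.5% a CCAAT box, 26.2% TATAA, 6.42% the E-box and 1.83% the cAMP response element. The Apoe window was chosen for its matches, so its counts cannot be weighed against these shares. A match describes these letters and does not show that a factor binds there.

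In the 2VO rat none of the 9 genes differed from the Sham rat by as much as a ratio of 5 to 4, and the set fell into 3 kinds. Apoe, Cd2ap, Sorl1, Lrp1 and Abca7 were lower in 2VO, Picalm was higher, and Clu, Bin1 and Ptk2b had nearly the same value in both rats. The comparison was made as the log2 of (2VO + 1)/(Sham + 1), which slightly understates the differences of low genes. It covered all 13550 genes whose mean over both rats reached 1 unit, a filter that all 9 passed. A ratio of 5 to 4 means that the larger value + 1 was at least 25% above the smaller. It was reached by 0 of the 9 in either direction, against 12.7% of all genes. The 5 lower members stand beside 41.3% of all genes that were lower in 2VO, and at 3 to 2 (1.5-fold) 0 of the 9 stand beside 2.48%. The median log2 ratio of the 9 was -0.09, with an SD of 0.13 among them, beside a median of 0.04 and an SD of 0.24 over all genes. The split depends on scaling. With equal upper quartiles 1 member, Picalm, was higher and 8 were lower, Apoe passed the ratio of 5 to 4, and the members' median was -0.14 beside -0.010 for all genes.

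**Figure D1:**
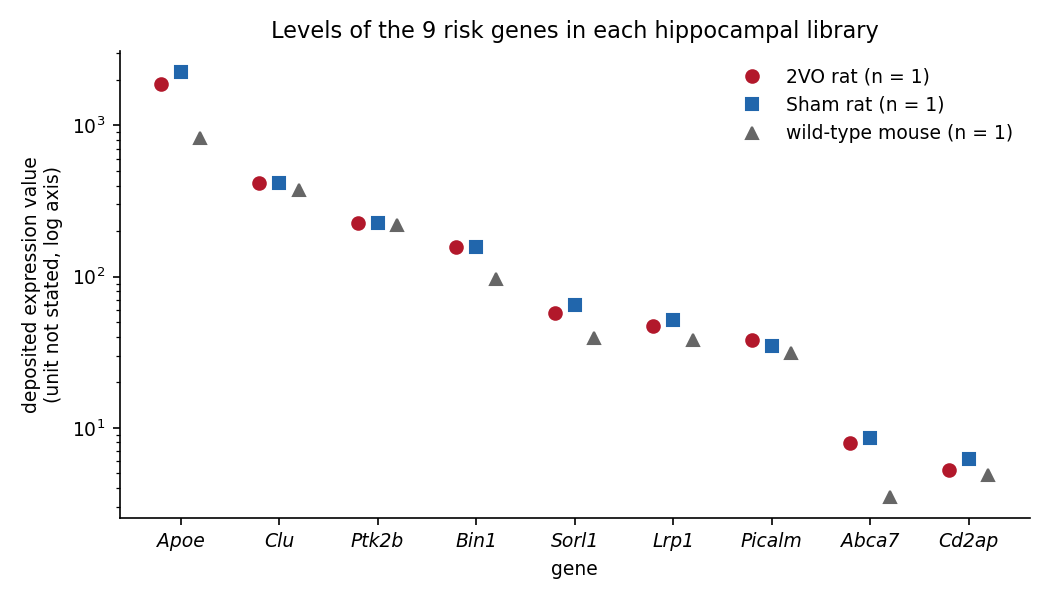
Deposited expression values (log axis, unit not stated) of the 9 genes, ordered by their Sham value, in the 2VO rat (circles), the Sham rat (squares) and the wild-type mouse (triangles), 1 library each with no error bars. Apoe stands at 1864 units in 2VO, 2255 in Sham and 826 in the mouse, while the circles and squares of Clu, Ptk2b and Bin1 are level.

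Apoe had the highest listed value of all genes in the Sham library and the second highest in 2VO, where the myelin gene Mbp led. It stood at 1864 units in 2VO, against 2255 in Sham, and at 826 in the mouse. The 2VO value was 0.827 of the Sham value, a log2 ratio of -0.27, and 849 of the 13550 genes had a lower ratio. Apoe thus lay at percentile 6.27 of all ratios, and at percentile 5.25 among the 6479 genes whose mean reached 10 units. As a share of all summed values it was 0.558% in 2VO, 0.692% in Sham and 0.307% in the mouse. In bulk tissue fewer cells of a type and less RNA per cell cannot be told apart.

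Clu did not share the difference. It stood at 418 units in 2VO and 417 in Sham, a log2 ratio of 0.0014, and at 374 in the mouse. The ratio of Apoe to Clu within a library, which no scaling between libraries changes, was therefore 4.46 in 2VO, 5.41 in Sham and 2.21 in the mouse. Clu and Apoe, both made chiefly by astrocytes in this tissue, thus stood in different proportion in each of the 3 animals.

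Marker genes of cells that make or use these proteins differed between the rats as well. The 15 astrocyte markers summed to 2426 units in 2VO and 2740 in Sham, with 6 members higher and 9 lower in 2VO, or 3 and 12 after upper-quartile scaling. Gfap alone was 360 in 2VO and 778 in Sham. Without Gfap, a split chosen after its value was seen, the other 14 summed to 2066 in 2VO and 1962 in Sham, and Apoe over that sum was 0.902 and 1.149 in 2VO and Sham. Over the full list Apoe was 0.768 in 2VO and 0.823 in Sham. Of 14 measured microglial markers 3 were higher and 11 lower, and all 15 listed summed to 285 in 2VO and 341 in Sham. Apoe over the microglial sum was 6.54 in 2VO and 6.61 in Sham. None of the astrocyte or microglial markers was listed at 0 in either rat. The part of either cell type in the lower Apoe value was not tested.

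The receptors of these carriers were also somewhat lower in 2VO. Lrp1, the endocytic receptor for ApoE, was 47.3 units in 2VO, against 51.7 in Sham, and 37.9 in the mouse, with a log2 ratio of 2VO to Sham of -0.13. Sorl1, the sorting receptor, was 57.4 in 2VO, 65.0 in Sham and 39.5 in the mouse, a log2 ratio of -0.18 at percentile 12.6 of all genes. Sort1, a sorting receptor of the same VPS10 family, was 102 in 2VO and 117 in Sham, so that Sorl1 over Sort1 was 0.563 in 2VO and 0.558 in Sham. Lrp1 over its large relative Lrp1b was 16.9 in 2VO and 16.1 in Sham. The lower values of Lrp1 and Sorl1 thus came with lower values of those relatives.

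Abca7, the lipid exporter, was 7.95 units in 2VO and 8.53 in Sham, a log2 ratio of -0.09, and 3.51 in the mouse. Its close relative Abca1, which loads lipid onto ApoE, went the other way, at 5.85 in 2VO and 5.004 in Sham. Abca7 over Abca1 was 1.36 in 2VO, 1.71 in Sham and 0.771 in the mouse, so the relative with the larger value was not the same in rats and mouse.

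The endocytic adaptors were divided. Picalm, which sets the size of clathrin-coated vesicles and recruits their SNARE cargo, was the 1 member with a log2 ratio above 0.01. It stood at 38.3 units in 2VO, against 34.5 in Sham, and at 31.01 in the mouse. Its log2 ratio of 0.14 lay at percentile 71.7 of all genes, and 44.4% of genes had a larger ratio in size. With upper-quartile scaling the Picalm ratio was 0.09. Cd2ap, an adaptor between receptors and actin, had 5.25 units in 2VO, against 6.24 in Sham, and 4.88 in the mouse. The log2 ratio was -0.21, at percentile 9.76. Bin1, which shapes curved membranes and is abundant in oligodendrocytes and neurons, was 157 in 2VO and 156 in Sham, and 97.02 in the mouse. The 15 oligodendrocyte markers summed to 5047 in 2VO and 4044 in Sham, with 13 higher and 2 lower, and Bin1 over that sum was 0.0310 in 2VO and 0.0387 in Sham. The 10 listed endothelial markers, of a cell type rich in Picalm, summed to 66.9 in 2VO and 67.9 in Sham. The part of these cell types in the Bin1 and Picalm values was not tested. Ptk2b, the kinase, stood at 227.0 in 2VO, 226.5 in Sham and 219 in the mouse, the member of the 9 with the smallest difference between Sham and mouse.

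Clu, Bin1 and Ptk2b had log2 ratios within 0.01 of 0 in the values as deposited, 3 of the 9. Over all genes 4.38% were that close. Their signs are not settled, since upper-quartile scaling placed each of them at -0.05.

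**Figure D2:**
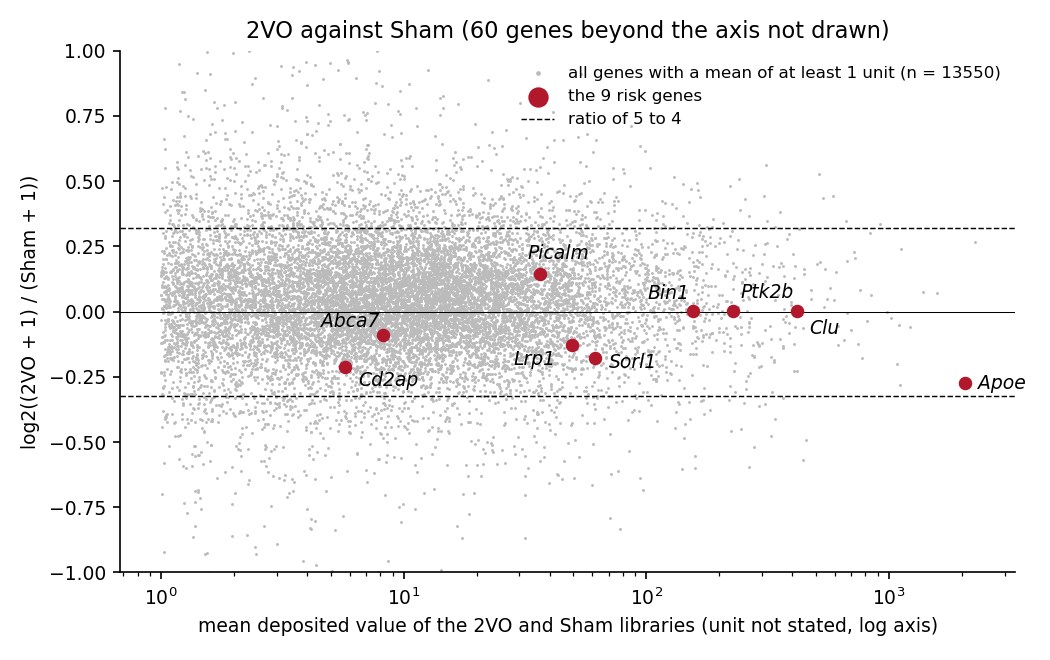
Log2 of (2VO + 1)/(Sham + 1) against the mean value of both rats (log axis, unit not stated) for 13550 genes (grey) and the 9 genes (red, named), 1 library per group. The 9 genes lie between the dashed lines at a ratio of 5 to 4, from -0.27 for Apoe to 0.14 for Picalm, and 60 genes beyond the axis are not drawn.

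Members were next set beside a related gene of the same library. Of 9 such ratios, those to Clu and Lrp1 within the set included, 6 were lower in 2VO than in Sham. The ratios are not separate, since Apoe and Lrp1 each enter more than 1 of them. The share of lower ratios among other gene pairs was not computed, so this count has no background beside it. Bin1 over Amph, the gene of its neuronal partner amphiphysin, was 4.64 in 2VO, 5.94 in Sham and 1.27 in the mouse. Amph itself was 33.7 units in 2VO and 26.3 in Sham, and 76.5 in the mouse. Cd2ap over Sh3kbp1, which encodes the related adaptor CIN85, was 0.529 in 2VO, 0.674 in Sham and 1.014 in the mouse. Picalm over Snap91, the gene of the neuronal clathrin assembly protein AP180, was 0.434 in 2VO, 0.474 in Sham and 0.366 in the mouse, because Snap91 was further above its Sham value than Picalm was. Ptk2b over the kinase gene Ptk2 was 9.39 in 2VO, 8.66 in Sham and 10.2 in the mouse. The neuronal partners Amph and Snap91 were thus higher in 2VO while the widely expressed members were flat or less so. The list of relatives of the 9 genes had 19 measured members, with a median log2 ratio of 0.08. Of these 11 lay above Sham, or 57.9% beside 58.7% of all genes, and 8 below. After upper-quartile scaling 10 lay above, or 52.6% beside 47.8% of all genes, and 9 below. Past a ratio of 5 to 4 as deposited were 3 higher, Apoc1, Apod and Amph, or 15.8% beside 8.1% of all genes. None was lower past it, beside 4.58% of all genes. The lowest were Bin2, a Bin1 relative of blood and myeloid cells, at 4.43 units in 2VO and 5.76 in Sham, and Sort1, given above. With upper-quartile scaling 2 were higher past that ratio, or 10.5% beside 5.77% of all genes, and 1 lower, or 5.26% beside 6.21%.

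**Figure D3:**
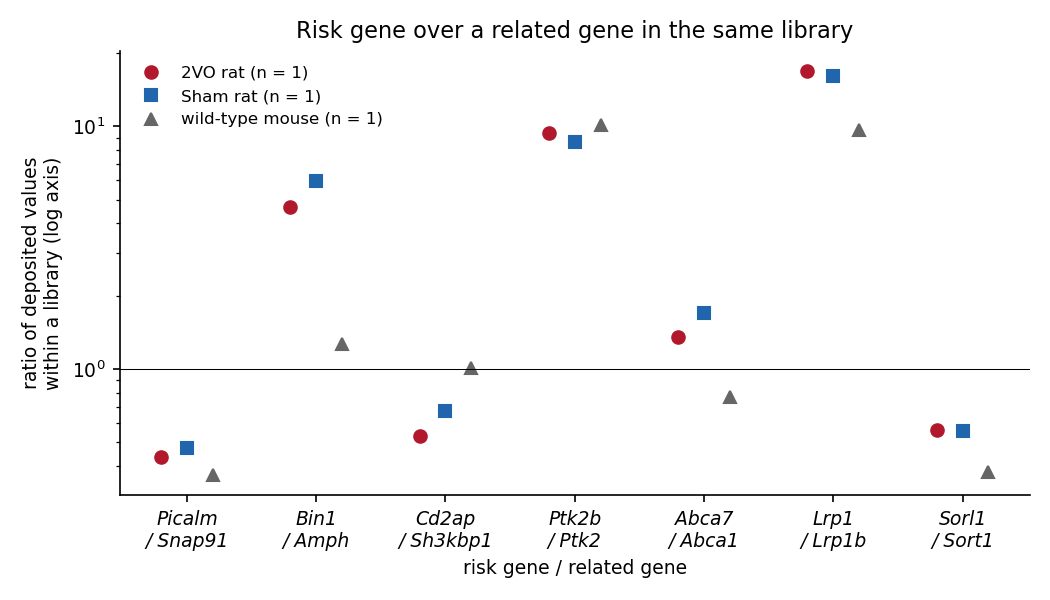
Ratio of a risk gene to a related gene within the same library (log axis), in the 2VO rat (circles), the Sham rat (squares) and the wild-type mouse (triangles), 1 library each. Bin1 over Amph is 4.64 in 2VO and 5.94 in Sham, against 1.27 in the mouse, while Sorl1 over Sort1 is 0.563 in 2VO and 0.558 in Sham.

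Wider gene groups around the 9 were mostly a little higher in 2VO, as were 58.7% of all genes as deposited, or 47.8% after upper-quartile scaling. The lists share some members with each other. Among 27 measured genes of lipoprotein receptors and lipid carriers 20 lay above and 7 below their Sham value, and the median log2 ratio was 0.08, or 16 above and 11 below with upper-quartile scaling. Past a ratio of 5 to 4 were 5 higher, against 8.1% of all genes, and 0 lower, against 4.58%. The abundant lipocalin carrier Apod was 192 units in 2VO and 141 in Sham, and Apoc1, an apolipoprotein of microglia and astrocytes, was 8.95 and 4.90 in 2VO and Sham. Ttr, the transthyretin of the choroid plexus, was 4.75 in 2VO and 0.434 in Sham. Of the choroid plexus and ependymal markers, a list that includes Ttr itself, 7 of 8 measured genes were higher, beside 58.7% of all genes. Another 5 were below the filter. All 13 listed summed to 79.7 in 2VO and 56.5 in Sham, of which Enpp2 alone was 46.7 and 32.0. The part of these cells in the Ttr value was not tested. Lcat, a cholesterol-esterifying enzyme gene, and Rxra, a nuclear receptor gene, both named after their values were seen, completed the 5, at 8.82 and 6.47 in 2VO and 6.48 and 4.74 in Sham. At the low end the nuclear receptor gene Rxrb was 24.6 in 2VO and 29.8 in Sham. Apod and Apoc1 were thus above their Sham values in the library in which Apoe was below its own.

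Of 35 clathrin endocytosis genes 25 lay above and 10 below Sham, and the median log2 ratio was 0.07. Past a ratio of 5 to 4 were 4 higher, or 11.4% beside 8.1% of all genes, and 0 lower, beside 4.58%. After upper-quartile scaling 18 lay above and 17 below, and 1 was higher past that ratio, or 2.86% beside 5.77% of all genes. Sh3gl2, the gene of endophilin A1, was 84.7 units in 2VO and 62.9 in Sham, and Synj1, whose product strips phosphoinositides from coated vesicles, was 61.6 and 47.4 in 2VO and Sham. Amph, given above, and the dynamin gene Dnm3 at 11.004 in 2VO and 8.57 in Sham were the others, both named after their values were seen. The neuronal dynamin gene Dnm1, the most abundant of the list, was 435 in 2VO and 386 in Sham. Epn2 and Cltb were the lowest, at 64.7 and 107 in 2VO and 72.3 and 118 in Sham. The neuronal release genes Snap25 and Syt1 were higher in 2VO too, at 614 and 282, against 454 and 198 in Sham, while the excitatory list as a whole had 7 genes higher and 8 lower. Past a ratio of 5 to 4 were 3 of its genes higher and 2 lower. The lower pair was Wfs1, an endoplasmic reticulum gene of CA1 neurons, at 111 in 2VO and 169 in Sham, and the transcription factor gene Neurod2, at 57.1 in 2VO and 76.3 in Sham. Snap25, Syt1, Wfs1 and Neurod2 were named after their values were seen. Their part in the endocytosis values was not tested.

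Retromer and endosomal sorting genes, the machinery with which Sorl1 works, were higher in 16 and lower in 4 of 20 measured, or in 14 and 6 after upper-quartile scaling, with a median of 0.08 as deposited, and 0 passed a ratio of 5 to 4. Vps35, the retromer core subunit, was 46.4 units in 2VO and 40.2 in Sham. The sorting nexin genes Snx1 and Snx5 were at opposite ends, at 26.5 and 28.3 in 2VO and 21.8 and 33.6 in Sham. Snx3 was 107 in 2VO and 114 in Sham, and Rab7a, a small GTPase of late endosomes and the most abundant of the list, was 123 and 116 in 2VO and Sham. Sorl1 was thus lower in the same library in which most genes of this machinery, like most genes as deposited, were slightly higher.

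Another 58 genes linked to Alzheimer risk or pathology were listed, of which 46 were measured. In 2VO 28 lay above and 18 below Sham, and the median log2 ratio was 0.03, close to the 0.04 of all genes. Upper-quartile scaling turned this to 20 above and 26 below, with a median of -0.02. Past a ratio of 5 to 4 were 2 higher, or 4.35% beside 8.1% of all genes, and 4 lower, or 8.7% beside 4.58%. Upper-quartile scaling gave 2 higher and 6 lower, the 6 being 13.0% of the list beside 6.21% of all genes. Ace, the angiotensin-converting enzyme gene, was 2.47 units in 2VO and 1.20 in Sham, and Unc5c, a netrin receptor gene, was 4.55 and 3.25 in 2VO and Sham. The lower 4 were low in level. Sppl2a, an intramembrane protease gene, was 3.65 in 2VO and 5.41 in Sham, and Tyrobp, the signalling adaptor of Trem2, was 8.45 and 11.3 in 2VO and Sham. Abi3 and Spi1, a microglial cytoskeletal regulator and a myeloid transcription factor named after their values were seen, were 2.42 and 2.34 in 2VO and 3.44 and 3.26 in Sham. Trem2 itself was 7.19 in 2VO and 7.21 in Sham. App, the most abundant of the list, was 468 in 2VO and 423 in Sham. Tyrobp, Abi3 and Spi1 are themselves microglial genes, and the microglial sums given above were lower in 2VO, and their part in these values was not tested.

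**Figure D4:**
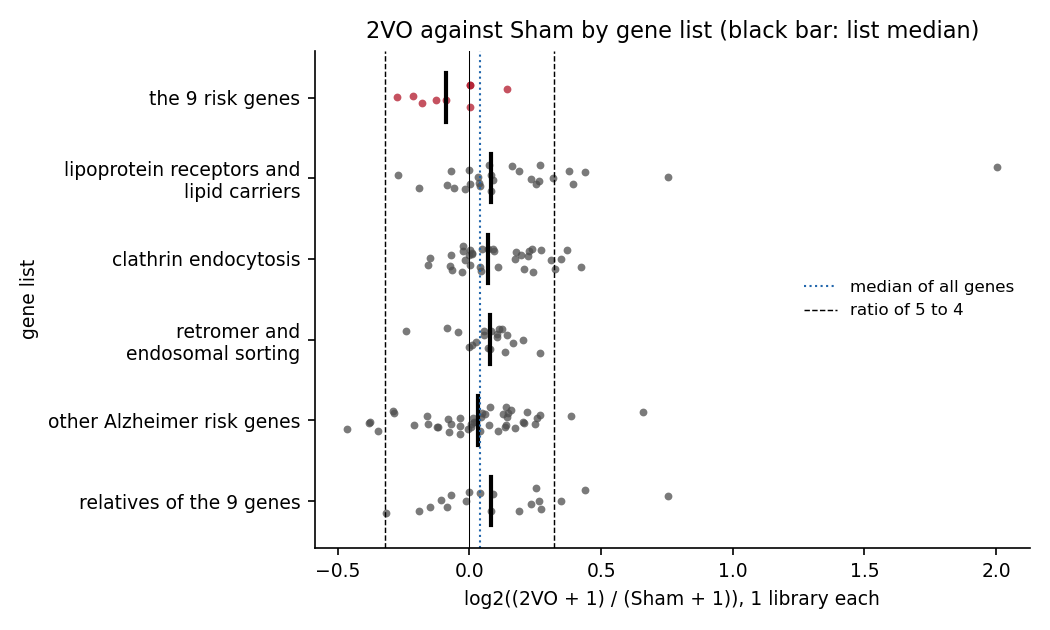
Log2 of (2VO + 1)/(Sham + 1) for each measured gene (points) of the 9 genes and 5 related lists, 1 library per group; points are spread vertically for legibility. Black bars mark list medians, from -0.09 for the 9 genes to between 0.03 and 0.08 for the lists, the dotted line the median of all genes at 0.04 and the dashed lines a ratio of 5 to 4.

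As deposited, the values of the genes on either side of Apoe were not lower in 2VO. In the RefSeq gene order of GRCr8, a set of neighbours looked up after the values were seen, Apoe lies between Apoc1 and Tomm40. Apoc1 was 8.95 units in 2VO and 4.90 in Sham, a log2 ratio of 0.75. Tomm40, a gene of the mitochondrial import pore, was 43.2 in 2VO and 42.4 in Sham. Farther out on the Tomm40 side, Nectin2, a cell adhesion gene, was 5.16 in 2VO and 4.14 in Sham, and Bcam, another adhesion gene, was 2.72 in 2VO and 3.68 in Sham, a log2 ratio of -0.33. Clu and Ptk2b, often named together because they neighbour each other in mammals, had 4 protein-coding genes between them in that table. Of these 4 Chrna2 was 3.76 in 2VO and 3.56 in Sham, whereas Ephx2, an epoxide hydrolase gene, was 3.04 in 2VO and 7.05 in Sham. The remaining pair, Gulo and Adam2, were at or near 0 in both rats. The Ephx2 difference therefore lay between 2 genes with nearly equal values in both rats.

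Set beside the wild-type mouse, all 9 genes had higher values in both rats. In 2VO 4 of the 9 were by at least 5 to 4 above the mouse, against 39.7% of 11460 shared symbols, and 1 was at least 2-fold above it, against 11.1%. In Sham 5 of the 9 passed 5 to 4, against 38.0% of 11436 symbols, and 2 passed 2-fold, against 11.3%. Both comparisons share the mouse library. The log2 difference from the mouse was 1.17 in 2VO and 1.45 in Sham for Apoe, and 0.99 in 2VO and 1.08 in Sham for Abca7. Sorl1 stood 0.53 above the mouse in 2VO and 0.70 in Sham, and Bin1 0.69 and 0.68 in 2VO and Sham. Species, age, strain and annotation cannot be told apart here. Over the same shared symbols 60.3% were higher in 2VO than in the mouse and 57.2% were higher in Sham, so a higher value in the rats was the more common case. Among all Sham differences from the mouse Clu lay at percentile 52.4, Picalm at 52.0 and Ptk2b at 45.5. After upper-quartile scaling over shared symbols 6 of the 9 stayed above the mouse in 2VO and 8 of the 9 in Sham. The share of all shared symbols above the mouse at that scaling was not computed. Ptk2b was then at -0.12 in 2VO and -0.09 in Sham, while Cd2ap at -0.05 and Clu at -0.0080 were below the mouse in 2VO only.

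Ranks within each library depend on no scaling, and 6 of the 9 had a higher rank percentile than in the mouse, in 2VO as in Sham. The share of all shared symbols with a higher rank percentile in the rats was not computed, so this count has no background beside it. Among 16251 symbols shared by the tables Apoe was at rank percentile 99.99 in 2VO, 100 in Sham and 99.97 in the mouse, and Clu was at 99.69, 99.69 and 99.74. Abca7 shifted most of the 9, at 58.5 in 2VO, 60.7 in Sham and 44.7 in the mouse. Cd2ap, the lowest of the set in both rats but not in the mouse, was near the middle of all symbols. It was at 49.8 in 2VO, 54.2 in Sham and 50.4 in the mouse. The mouse value of Gapdh, 6.36 units beside 1219 in 2VO and 1031 in Sham, limits what a single value says across these species.

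The genes nearest to Apoe in level over the 3 libraries, by Euclidean distance of log2(value + 1) among shared symbols, were Mbp at 0.51, Cst3 at 0.84 and Fth1 at 0.89. Those nearest to Clu were Actg1 at 0.14, App at 0.17 and Tspan7 at 0.18.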

How the data were processed

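Total hippocampal RNA was extracted with TRIzol and built into libraries (TruSeq RNA Library Prep Kit v2), as the labels' protocols say. Per the submitters' processing notes, which give no roles, fastp 0.21.0, HISAT2 2.1.0 and DESeq2 were used with GRCm39 and mRatBN7.2. Each table the authors deposited holds 1 library's normalized expression signal. The unit, the quantifier, the annotation and any filter are not stated there, and no counts or depths are known.

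Values were compared as deposited, without rescaling, as log2 ratios of value + 1 over genes averaging 1 unit or more, and genes past ratios of 5 to 4 and 3 to 2 were counted. Single libraries allow no test. The calculation was tested on simulated data. Mouse and rat symbols were joined ignoring case. From each of the 5 related lists the 2 highest and 2 lowest genes and the most abundant one are named. The members, lists and comparisons were chosen with earlier results of these data known. RefSeq sequences and gene order are of GRCr8, which differs from the build in the notes, and no values were placed by coordinate. Alternatives were 0.25 or 4 units added, no filter or an average of 5 units or more, upper-quartile and median-of-ratios scaling, scaling on all but the 50 top genes, and lowess centring (span 0.3). Python 3.11.15, pandas 2.3.3, numpy 2.4.6, statsmodels 0.14.6 and matplotlib 3.10.9 were used.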

Additional observations from a re-analysis of the deposited data

How the results depend on the processing

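Apoe, Sorl1, Cd2ap, Abca7 and Lrp1 stayed lower in 2VO and Picalm stayed higher under all 8 alternatives, with Apoe between -0.33 and -0.27 on the log2 scale. The sign of a gene's ratio cannot change with the units added or the filter. Only the other 4 alternatives, the scalings and lowess centring, could move it. Clu, Bin1 and Ptk2b turned negative under all 4 of these, to -0.05 at the lowest. Upper-quartile and median-of-ratios scaling each placed 1 of the 9 genes, Apoe, past a ratio of 5 to 4, against 0 as deposited. The number of all genes past a ratio of 5 to 4 was 784 with 4 units added and 2266 with 0.25 added, against 1718 of 13550 as compared. It was 978 of 9233 genes averaging 5 units or more and 2100 of 23244 without a filter. List medians kept their sign except that of the other Alzheimer risk genes, which turned negative under 4 of the 8, to -0.02 at the lowest. No paired analysis was possible because each group holds 1 library. The single library per group and the unknown depth limit every value, and no alternative replaces a replicate.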

Other observations

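Rab5a, the gene of an early endosome GTPase, was 0.746 units in 2VO and 0.525 in Sham, against 40.7 in the mouse. It was left out of the retromer and endosomal sorting counts because it did not reach a mean of 1 unit in the rats. Amph, the Bin1 partner, was also lower in both rats than in the mouse, as given above, while Ap2m1, a subunit gene of the clathrin adaptor, was 330.4 in 2VO and 283 in Sham, against 117 in the mouse.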
